A study of Rattus norvegicus with 66 samples.

Results

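Expression of the aryl hydrocarbon receptor (AHR) pathway was examined in the dorsal hippocampus of neonatal Long Evans rats whose dams had received the polychlorinated biphenyl mixture Aroclor 1254, bisphenol A or chlorpyrifos. The pathway was represented by 7 genes, Ahr, Arnt, Arnt2, Ahrr, Cyp1a1, Cyp1b1 and Tiparp, which were picked by symbol from the 37777 genes of the count tables. Each symbol matched exactly 1 gene. Poly-A RNA of 64 pups, 41 males and 23 females, was sequenced on postnatal day (PND) 6 in 66 libraries, and the 2 libraries of a pup, available for 2 control pups, were added up. The labels give different times of day, 12.09 and 11.55 h, for the libraries of 1 of these pups, CONF female N4-3x, so that their origin from the same pup rests on the name alone. The tissue block also held some laterally adjacent neocortex.

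The pups formed 13 groups. Feeding controls (CONF, 4 males and 5 females) came from dams on soy-free chow, and injection controls (CONSC, 5 males and 5 females) from dams given vehicle subcutaneously. The labels name saline as that vehicle and the methods dimethyl sulfoxide. Aroclor 1254 was mixed into the chow of the dam at 0.5 mg/kg (Aro0.5, 4 males) or 5 mg/kg body weight (Aro5, 6 males and 5 females), from 2 weeks before mating until PND 6. Bisphenol A was given by the same route at 0.5 mg/kg (BPA0.5, 4 males) or 5 mg/kg (BPA5, 7 males and 4 females). Chlorpyrifos was injected into the dam at 1 mg/kg (CPF1, 4 males) or 3 mg/kg (CPF3, 7 males and 4 females) during pregnancy and lactation. Pups were thus exposed through the dam only. The 6 Aro5 males came from 5 litters and the 5 Aro5 females from 4 litters, all 4 of which also gave Aro5 males, so that these pups are not fully independent. Some litters of the control, BPA5 and CPF3 groups likewise gave pups of both sexes.

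AHR is a ligand-activated transcription factor of the bHLH-PAS family. It is held in the cytoplasm by a chaperone complex, moves to the nucleus when planar aromatic compounds such as dioxins and coplanar polychlorinated biphenyls bind, pairs with ARNT or ARNT2, and binds xenobiotic response elements near its target genes. Among the best known targets are the monooxygenases Cyp1a1 and Cyp1b1, the repressor Ahrr, which competes with AHR for ARNT, and Tiparp, an ADP-ribosyltransferase that promotes the loss of AHR protein. Induction of Cyp1a1 in liver is the classic sign of AHR activation, while in brain Cyp1b1 is known mainly from vascular and meningeal cells and Arnt2 mainly from neurons.

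The core of the xenobiotic response element, GCGTG, was searched on both strands in the 250 bases before the start of each gene in the RefSeq promoter table of build GRCr8, which held 6 of the 7 genes. The counts rest on another build, Rnor_6.0, and no coordinates were carried between them. The core occurred in the promoters of Cyp1b1, Ahrr, Tiparp and Arnt and not in the searched windows of Ahr and Arnt2, against 25.9% of all 33469 promoters. The longer form TNGCGTG, which contains the core, occurred once each in Cyp1b1 and Ahrr and in 4.09% of all promoters. The promoters of the 3 target genes with the core are shown because they bear the motif through which AHR is known to act, with each core or its reverse complement CACGC in capitals. The Cyp1b1 window lies at chr6:21094315-21094564 (plus strand), that of Ahrr at chr1:30821969-30822218 (plus strand) and that of Tiparp at chr2:152063519-152063768 (plus strand).
Cyp1b1: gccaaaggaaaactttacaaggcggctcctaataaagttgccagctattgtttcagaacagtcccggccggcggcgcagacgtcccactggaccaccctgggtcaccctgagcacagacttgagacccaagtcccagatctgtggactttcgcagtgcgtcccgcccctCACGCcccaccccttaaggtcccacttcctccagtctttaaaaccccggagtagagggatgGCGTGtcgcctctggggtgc
Ahrr: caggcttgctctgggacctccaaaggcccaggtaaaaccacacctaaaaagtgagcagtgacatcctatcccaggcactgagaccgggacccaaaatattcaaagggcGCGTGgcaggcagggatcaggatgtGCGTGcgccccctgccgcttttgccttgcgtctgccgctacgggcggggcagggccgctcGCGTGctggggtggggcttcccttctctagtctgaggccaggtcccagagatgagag
Tiparp: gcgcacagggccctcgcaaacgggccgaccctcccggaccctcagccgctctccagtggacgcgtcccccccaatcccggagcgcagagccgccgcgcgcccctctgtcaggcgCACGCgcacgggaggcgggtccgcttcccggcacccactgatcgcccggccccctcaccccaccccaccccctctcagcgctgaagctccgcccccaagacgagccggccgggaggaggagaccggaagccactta
Counted back from the start, the cores of Cyp1b1 began at -81 on the minus strand and at -20 on the plus strand. Those of Ahrr began at -142, -117 and -57 on the plus strand, and that of Tiparp at -136 on the minus strand. These are matches of letters and not measured binding sites.

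Library totals ranged from 10644138 to 86206550 counts, with a median of 20740650. The Y-linked Kdm5d followed the sex label in 64 of 64 pups. Of the hippocampal and neuronal markers, Prox1 (median 104, lowest 22.9 CPM) and Neurod6 (median 129, lowest 12.1 CPM) were detected in every pup, whereas Zbtb20 was low throughout (0.835 to 8.07 CPM). CPM are counts per 1000000 counts of the pup, and since they are not divided by gene length they are compared here only within a gene. The female CONSC pup 9-1x had the lowest Neurod2, Neurod6 and Slc17a7 and the highest Gad1 of all pups. The library names came in different spellings, which the labels do not explain. Among males, form A (capital Y, or a low line after the control name) held 9 of 10 control libraries and all 12 low-dose libraries. Form B held the other control library and all 20 high-dose libraries of males. High dose and name form therefore cannot be told apart in males, except through the 2 libraries of CONF male N2-2y and through comparisons among high-dose groups. Of the control female libraries 5 had form A and 6 form B, whereas the form of all 13 high-dose female libraries was not read. The part of name form in the female comparisons was not tested. The methods give a time window of 10.30 to 13.20 h for dissection, and by the labels 11 of the 66 libraries lay outside it.

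The main question was whether the polychlorinated biphenyls induced AHR target genes. Of the target genes with enough counts, none passed as higher or lower in Aro0.5 males, Aro5 males or Aro5 females than in controls. The test was the quasi-likelihood F test of edgeR, with p-values adjusted by Benjamini and Hochberg's procedure over all genes tested and a threshold of 0.05 on the adjusted p. In Aro5 males 0 of the 5 testable members passed and 1, Ahr, had an unadjusted p under 0.05, where 32 of all 16393 genes were called (0.195%) and 11.8% had an unadjusted p under 0.05. In Aro0.5 males 0 of 5 passed and 0 had an unadjusted p under 0.05, where 20 of 16139 genes were called (0.124%) and 18.5% had an unadjusted p under 0.05. In Aro5 females 0 of 6 passed and 0 had an unadjusted p under 0.05, where 0% of 16992 genes were called and 3.23% had an unadjusted p under 0.05. DESeq2 likewise called 0 members in these comparisons. The comparisons of 1 sex and dose level share their controls. Since the tissue is a mixture, fewer cells of a type and less RNA per cell cannot be told apart.

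**Figure D1:**
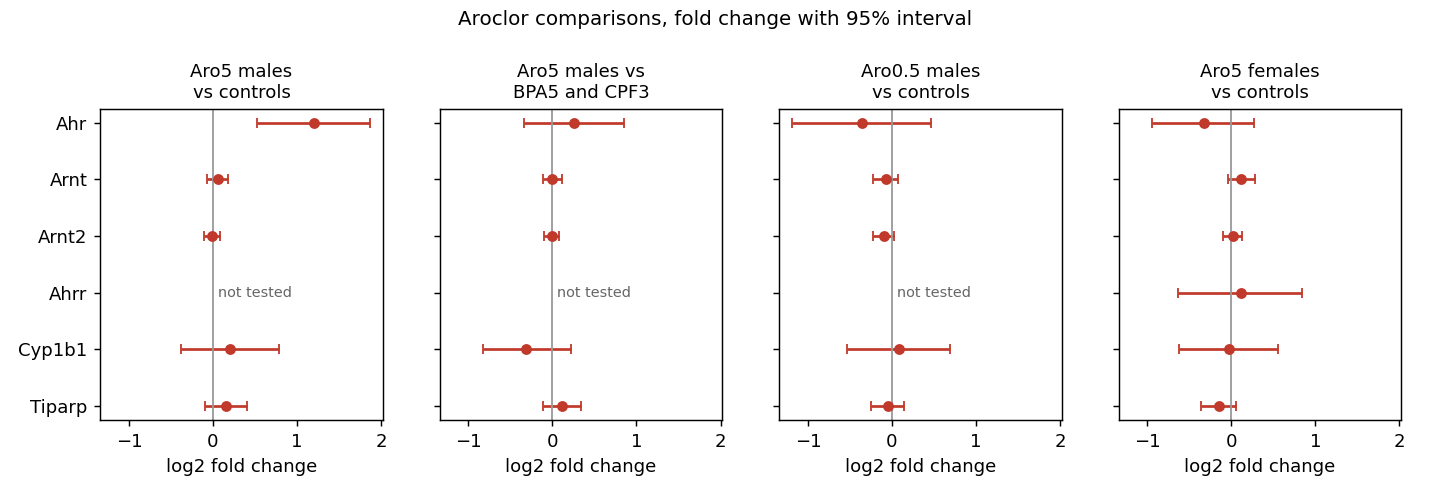
Log2 fold change (x axis) of the members in 4 Aroclor comparisons, with 95% intervals from edgeR. The interval of Ahr in Aro5 males lies above 0 (0.52 to 1.87) and no other interval against controls does; Ahrr was under the count filter in the male fits and Cyp1a1 in all fits.

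Cyp1a1, the most inducible AHR target in other tissues, was barely detected. It had 0 to 15 counts per pup over the 64 pups, with a median of 2. In control males the lowest, median and highest values were 0, 0.0812 and 0.332 CPM, and in Aro5 males 0.0659, 0.165 and 0.277 CPM. The highest Aro5 male lay below the highest control male, and the groups overlapped almost completely. Summed over pups, Aro5 males had 25 counts of Cyp1a1 and control males 17, a ratio of rates of 1.31 with a 95% interval of 0.681 to 2.59 that covers counting error only. The difference in mean CPM was 0.0418 (exact 2-sided permutation test over pups, p = 0.482).

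The 4 Aro0.5 males had 0.0312, 0.0405, 0.0715 and 0.228 CPM of Cyp1a1, and the 5 Aro5 females 0, 0.0756, 0.092, 0.117 and 0.154 CPM. Control females lay between 0.0309 and 0.142 CPM. All Aro0.5 males lay within the control range, while 1 Aro5 female (115-7x) lay above all control females and 1 (116-1x) below them. The ratio of rates against controls was 0.768 (0.314 to 1.78; exact permutation test, p = 0.662) in Aro0.5 males and 0.872 (0.392 to 1.81; exact permutation test, p = 0.701) in Aro5 females. The spread of Cyp1a1 between pups of a group was 79.7% of its mean, against 59.5% from counting alone at its mean count, so that these intervals are too narrow for a difference between groups. Cyp1a2, the sister gene that is typical of liver, had 3 counts in all libraries together.

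Ahrr, the AHR repressor, was also rare, with 0 to 21 counts per pup and a median of 6. Control males had 0.0596, 0.182 and 0.499 CPM as lowest, median and highest value, and Aro5 males 0.144, 0.285 and 0.461 CPM. The 4 Aro0.5 males had 0.0715, 0.122, 0.152 and 0.281 CPM. All Aro5 and Aro0.5 males lay within the range of the control males. The difference in mean CPM was 0.0582 in Aro5 males (exact permutation test, p = 0.396) and -0.0611 in Aro0.5 males (exact permutation test, p = 0.445). In the female fit Ahrr passed the count filter, and the log2 fold change of Aro5 females was 0.11 ± 0.36 (SE; 95% interval -0.63 to 0.84; adjusted p = 0.999). In all, 20 exact tests were run for Cyp1a1 and Ahrr where the filter had removed them, over all chemicals, and 0 had a p under 0.05. The lowest p, 0.0869, belonged to Ahrr in Aro0.5 males against BPA0.5 and CPF1 males, where Aro0.5 was the lower group (0.156 ± 0.0895 against 0.356 ± 0.199 CPM; SD, n = 4 and 8; exact permutation test). Without BPA0.5 male 73-4y, which had 0 counts of Ahrr, the exact permutation p of that comparison was 0.0182 and that of BPA0.5 males against controls 0.0227, and without CONF male N5-2y that of CPF1 males against controls was 0.0182. These 3 are picked from all exact tests of Ahrr with 1 pup left out. Of the others, 108 kept their result and 7 changed sign.

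**Figure D2:**
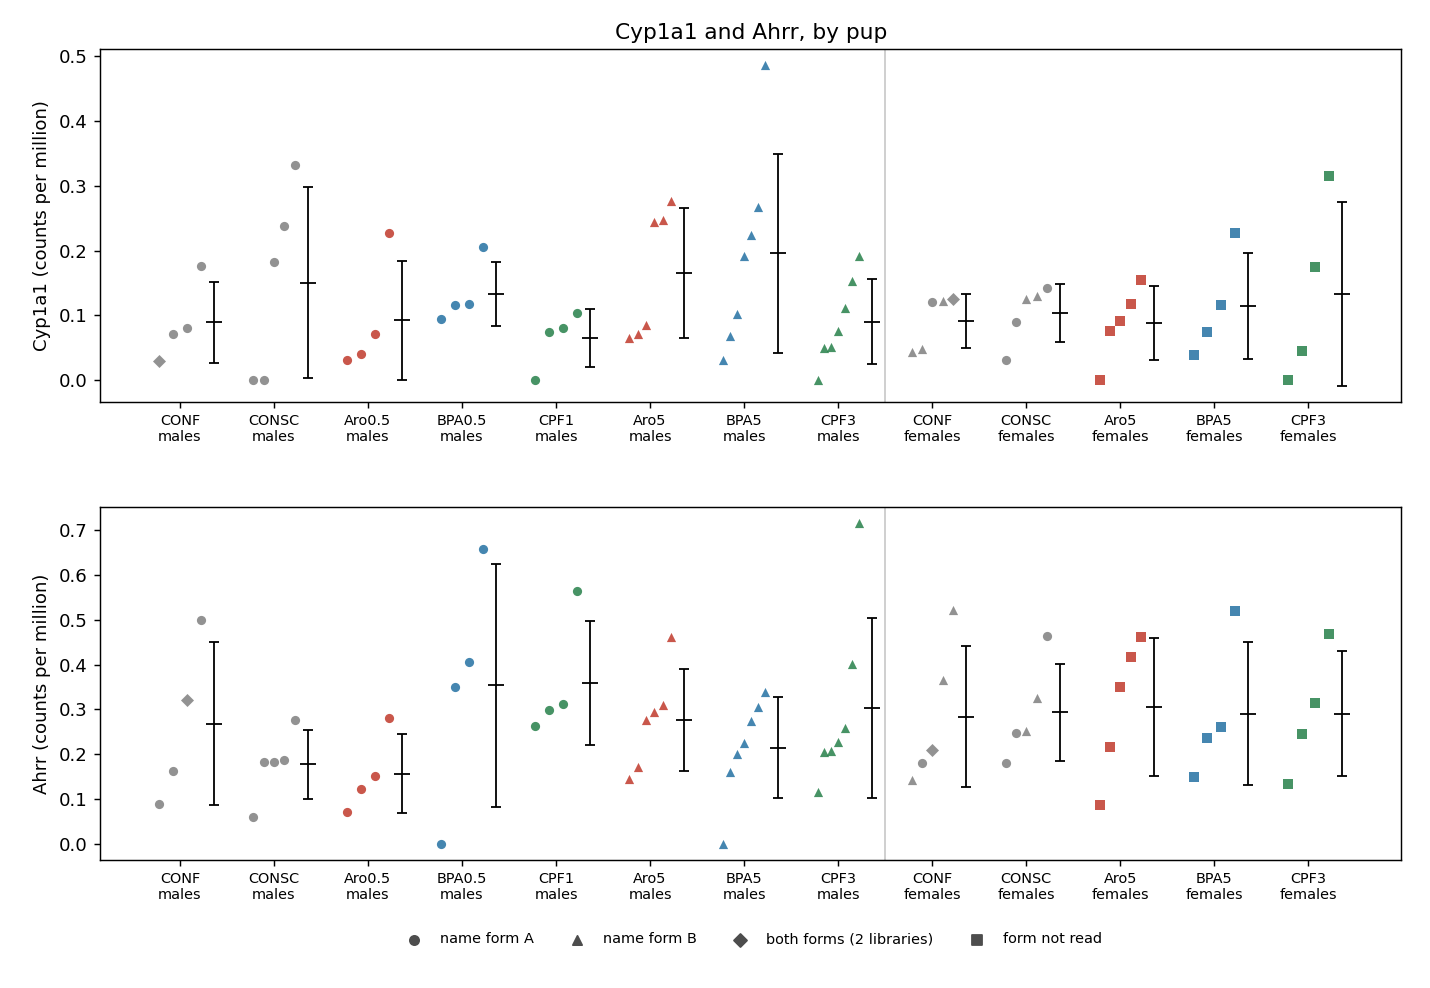
CPM of Cyp1a1 (top) and Ahrr (bottom) in each pup of the 13 groups; bars show mean ± SD and the marker shape gives the form of the library name. The Aroclor groups (red) lie within the scatter of the other groups, between 0 and 0.277 CPM for Cyp1a1 and between 0.0715 and 0.461 CPM for Ahrr.

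Cyp1b1, which oxidizes polycyclic hydrocarbons and estradiol, was measured with 15 to 244 counts per pup. Control males had 1.22, 2.78 and 4.05 CPM as lowest, median and highest value. The 6 Aro5 males ranged from 1.36 to 4.89 CPM with a median of 2.94 CPM. Only 2 of them, 115-14y at 4.89 and 120-1y at 4.25 CPM, lay above all control males, and the other 4 overlapped with controls. The fold was 1.15 with a 95% interval of 0.768 to 1.72 (log2 0.20 ± 0.28, SE; edgeR adjusted p = 0.839). In the 4 Aro0.5 males the values were 1.46, 2.93, 3.11 and 3.44 CPM, all within the control range. Their fold was 1.06 with a 95% interval of 0.691 to 1.61 (edgeR adjusted p = 0.908). The 5 Aro5 females had 1.84, 2.77, 3.43, 4.42 and 5.89 CPM, against 1.05 to 5.98 CPM in control females. Their fold was 0.976 with a 95% interval of 0.649 to 1.47 (edgeR adjusted p = 0.999). With pups of the time window the log2 fold change of Cyp1b1 in Aro5 males was 0.48 ± 0.37 and in Aro0.5 males 0.30 ± 0.34, and with feeding controls alone that in Aro5 females was -0.24 ± 0.32 (SE; adjusted p = 0.515, 0.769 and 1).

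The same gene was not higher in Aro5 males than in the other high-dose males. BPA5 males had 3.85 ± 1.53 CPM and CPF3 males 3.87 ± 1.24 CPM of Cyp1b1 (SD, n = 7 each), compared with 3.04 ± 1.48 CPM in Aro5 males (SD, n = 6). Against controls the log2 fold change was 0.50 ± 0.27 in BPA5 males (adjusted p = 0.574) and 0.52 ± 0.27 in CPF3 males (SE; adjusted p = 0.434). For Aro5 against the mean of the other chemicals it was -0.31 ± 0.26 (adjusted p = 0.81). By edgeR, 0 of 5 members and 0% of 16393 genes passed in this last comparison, with 0 members at an unadjusted p under 0.05, which 5.03% of all genes had. DESeq2 called 0 members and 1 gene.

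Tiparp was well covered, with 137 to 823 counts per pup. Control males lay between 12.1 and 15.8 CPM with a median of 13.7 CPM. Aro5 males spread from 9.65 to 20.1 CPM with a median of 15.1 CPM. They went past the controls at both ends, since 3 of 6 lay above all control males and 1, 108-1y, lay below them. The fold was 1.11 with a 95% interval of 0.939 to 1.31 (log2 0.15 ± 0.12, SE; edgeR adjusted p = 0.667). With a term for the name form, which rests on 1 control library of form B, the log2 fold change was 0.36 ± 0.26 (SE). Aro0.5 males had 10.9, 11.3, 13.4 and 14.7 CPM, a fold of 0.964 with a 95% interval of 0.842 to 1.10 (edgeR adjusted p = 0.789). The 5 Aro5 females had 8.99, 9.12, 10.3, 10.7 and 11.7 CPM, against a range of 8.63 to 13.9 CPM in control females. None of them left the control range, and the fold was 0.90 with a 95% interval of 0.781 to 1.04 (edgeR adjusted p = 0.999). The spread of Tiparp within groups was 15.3% of its mean, against 37.6% for Cyp1b1.

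**Figure D3:**
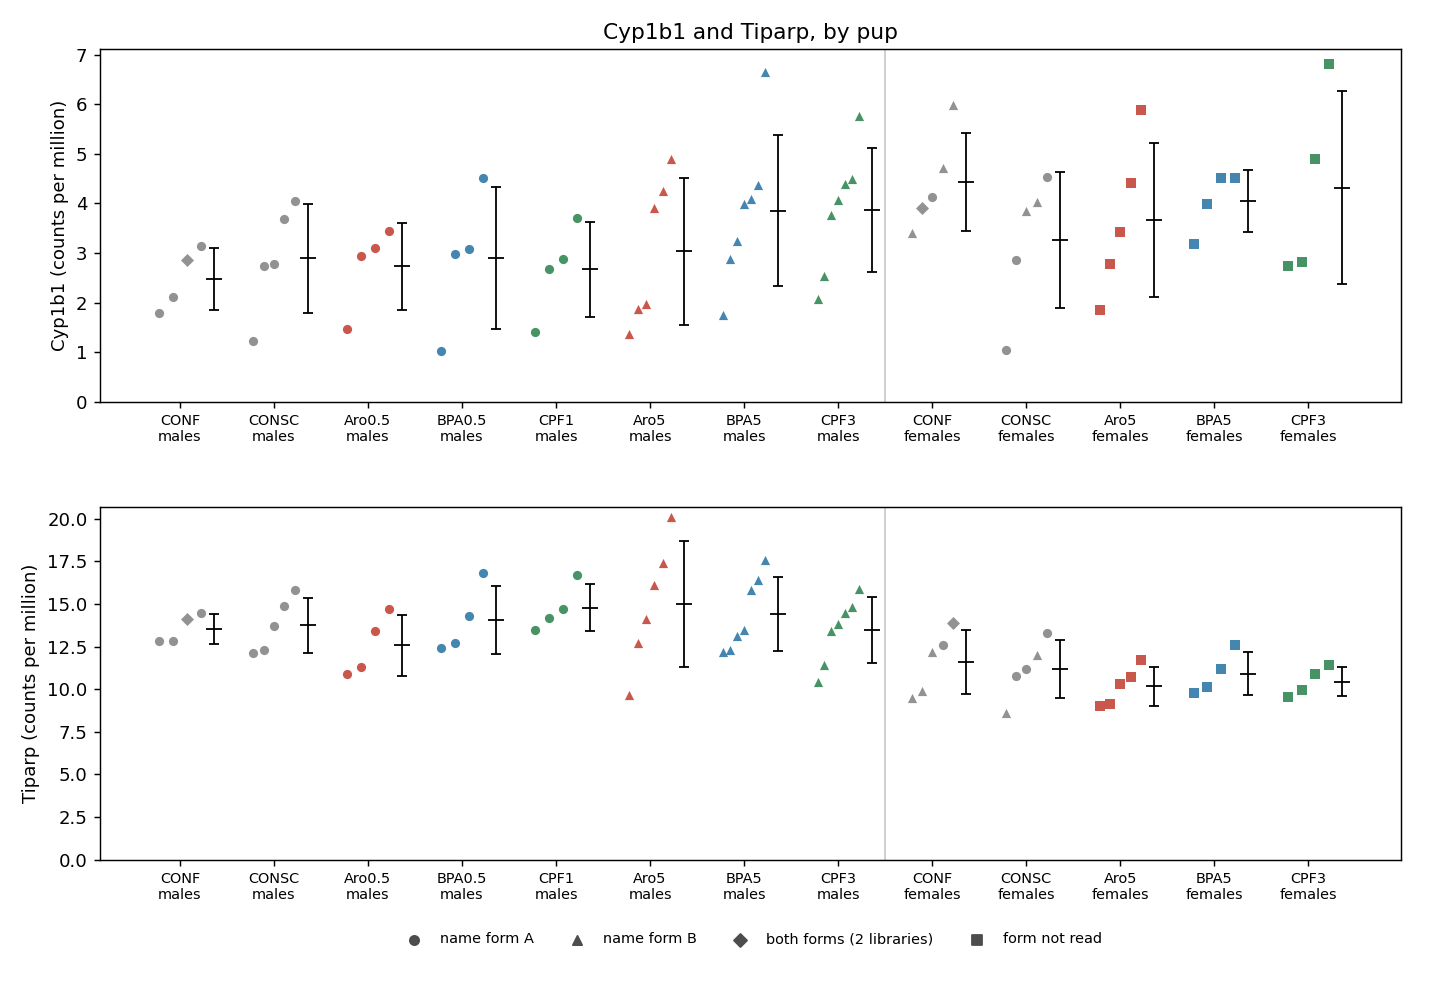
CPM of Cyp1b1 (top) and Tiparp (bottom) in each pup of the 13 groups; bars show mean ± SD and the marker shape gives the form of the library name. Aro5 males cover 1.36 to 4.89 CPM of Cyp1b1 and 9.65 to 20.1 CPM of Tiparp, and overlap with the CONF and CONSC males.

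The receptor gene Ahr was the member with the largest difference between groups, and it did not pass the test. It was covered by 3 to 273 counts per pup. Control males had 0.244, 2.28 and 4.38 CPM as lowest, median and highest value, and Aro5 males 1.52, 5.27 and 8.03 CPM. Of the 6 Aro5 males, 4 lay above all 9 control males, 117-4y at 3.97 CPM lay among the upper controls, and 108-1y at 1.52 CPM lay below the control median. The mean was 5.24 ± 2.37 CPM in Aro5 males (SD, n = 6) and 2.26 ± 1.31 CPM in control males (SD, n = 9). The fold was 2.29 with a 95% interval of 1.43 to 3.66 (log2 1.20 ± 0.33, SE; unadjusted p = 0.00111, edgeR adjusted p = 0.169). Pup 108-1y was the only pup dissected at 15.45 h, and without it the log2 fold change was 1.38 with an adjusted p of 0.0352. Keeping only pups inside the time window also removes Aro5 117-4y and the CONSC males 10-2y (4.38 CPM), 13-1y (2.44 CPM) and 6-5y (2.97 CPM). The removed Aro5 males are the lowest of their group, and the removed control males all lie above the control median. With the remaining pups the log2 fold change was 1.83 ± 0.37 (SE) with an adjusted p of 0.0259.

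The other high-dose males were compared with the same controls. BPA5 males had 2.23, 4.8 and 6.41 CPM of Ahr as lowest, median and highest value, and CPF3 males 2.49, 5.11 and 5.67 CPM. In each of these groups 4 of 7 pups lay above all control males, and all 7 CPF3 males lay above the control median. The log2 fold change against controls was 0.93 ± 0.32 in BPA5 males (unadjusted p = 0.0077, adjusted p = 0.449) and 0.95 ± 0.33 in CPF3 males (SE; unadjusted p = 0.00684, adjusted p = 0.272). In each of these comparisons 0 of 5 members passed and 1 had an unadjusted p under 0.05, where 0.189% of all genes were called in BPA5 males and 0.159% in CPF3 males, and 9.1% and 12.6% had an unadjusted p under 0.05. The 3 differences are measured against the same control males. Between Aro5 males and the mean of BPA5 and CPF3 males the log2 difference was 0.26 ± 0.29 (SE; 95% interval -0.34 to 0.85; adjusted p = 0.829). It was 0.54 ± 0.31 with pups of the time window (SE; adjusted p = 0.354) and 0.09 to 0.44 when each pup was left out.

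All 3 high-dose male groups carry name form B, and nearly all male controls form A. With the form as a covariate, the log2 fold change of Ahr in Aro5 males was 0.61 ± 0.71 (SE). That fit had no term for the pup. Its form effect thus rests on 1 form B library of CONF N2-2y against all 9 control libraries of form A. The 2 libraries of this pup had 3.64 CPM (form A) and 3.49 CPM (form B) of Ahr, and the 9 form A libraries a mean of 2.27 CPM. Variation between pups and name form therefore cannot be told apart in that value. In control females, the 5 form A libraries had 1.26 to 5.20 CPM of Ahr, with a median of 2.94 CPM. The 6 form B libraries had 1.95 to 6.57 CPM, with a median of 5.01 CPM. The means were 3.05 ± 1.41 and 4.41 ± 1.75 CPM, in the same order (SD). Form B was thus higher on average in control females, with overlapping ranges. Feeding controls supplied 4 of the 6 form B libraries but only 2 of the 5 form A libraries, so control route and form are mixed here. Depth also differed, with medians over pups of 13.2 in CONF males and 16.4 in CONSC males against 29.1 in Aro5 males, in units of 1000000 counts. In the same units the medians were 27.2 in Aro0.5 males, 29.4 in BPA5 males and 20.0 in CPF3 males. Mean Ahr in these 3 groups was 1.73, 4.41 and 4.45 CPM, in the same order. The part of name form and depth in the Ahr difference was not tested further.

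At the low doses Ahr was not higher. All libraries of the low-dose males had name form A, and those of the control males were 9 of form A and 1 of form B. The 4 Aro0.5 males had 1.11, 1.70, 1.72 and 2.39 CPM, all inside the range of the control males, and 3 of the 4 lay below its median. The fold was 0.778 with a 95% interval of 0.437 to 1.38 (log2 -0.36; edgeR adjusted p = 0.64), and with pups of the time window the log2 fold change was -0.05 ± 0.43 (SE; adjusted p = 0.979). BPA0.5 males had 0.48, 1.5, 2.10 and 2.64 CPM and CPF1 males 0.893, 1.21, 1.24 and 1.98 CPM. Neither group exceeded the controls (log2 fold change -0.38 ± 0.43, adjusted p = 0.868, and -0.76 ± 0.45, SE, adjusted p = 0.997). Aro0.5 males differed from the other low-dose males by 0.21 ± 0.42 (log2, SE; adjusted p = 0.86). In BPA0.5 males 0 of 5 members were called (background 0.0434%), in CPF1 males 0 of 5 (background 0%) and in Aro0.5 against the other low-dose males 0 of 5 (background 0%), each with 0 members at an unadjusted p under 0.05 and 0 called by DESeq2. Of all genes, 8.58%, 2% and 11.1% had an unadjusted p under 0.05 in these comparisons, in the same order.

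In females Ahr was not higher after Aroclor. The 5 Aro5 females had 1.95, 2.36, 2.87, 2.98 and 3.78 CPM, and control females 1.26, 3.04 and 5.71 CPM as lowest, median and highest value. All Aro5 females lay inside the control range. The fold was 0.793 with a 95% interval of 0.521 to 1.21 (log2 -0.33; edgeR adjusted p = 0.999), and with feeding controls alone the log2 fold change was -0.60 ± 0.31 (SE; adjusted p = 1). BPA5 females had 2.97, 3.93, 5.86 and 6.68 CPM of Ahr and CPF3 females 2.38, 3.03, 3.21 and 5.52 CPM. Of the BPA5 females 2 of 4 lay above all control females and of the CPF3 females 0, where 1 of the libraries summed for CONF female N4-3x had 6.57 CPM and so exceeded all BPA5 females but 1, with log2 fold changes of 0.45 ± 0.30 and -0.04 ± 0.32 (SE; adjusted p = 0.925 and 0.981). In BPA5 females 0 of 6 members passed (background 0%; 0 at an unadjusted p under 0.05, against 4.08% of all genes), and in Aro5 females against the other high-dose females 0 of 6 (background 0%; 0 at an unadjusted p under 0.05, against 3.44% of all genes). DESeq2 called 0 members in either.

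The difference between the sexes in the response of Ahr to Aro5 was tested as an interaction. The log2 change was lower in females by 1.55 ± 0.47 (SE; interaction -1.55, 95% interval -2.49 to -0.61; unadjusted p = 0.00179, edgeR adjusted p = 0.313), which did not pass. With pups of the time window alone the interaction was -2.33 ± 0.52 and passed (SE; adjusted p = 0.0309). That window drops the low Aro5 males and the CONSC males named above. Aro5 and control males also differ in name form, and the form of the Aro5 female libraries was not read. A difference between the sexes in response therefore cannot be told apart from name form. Among the 6 members tested, 0 interactions passed and 1 had an unadjusted p under 0.05, where 0.0984% of 17282 genes were called and 8.92% had an unadjusted p under 0.05. DESeq2 called 0 members. For Tiparp the interaction was -0.31 ± 0.16 (SE; adjusted p = 0.561).

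Control females and control males differed in many genes, 4681 of 17282 (27.1%), and 0 of the 6 members were among them. Some control litters gave pups of both sexes, which this fit treated as independent. Of the members, 3 had an unadjusted p under 0.05, as did 37.5% of all genes, and DESeq2 called 0. Ahr was higher in females on average, 3.56 ± 1.55 against 2.26 ± 1.31 CPM (SD, n = 10 and 9; log2 0.65 ± 0.29, adjusted p = 0.0945). Tiparp was lower in females, 11.4 ± 1.73 against 13.7 ± 1.26 CPM (SD; log2 -0.23 ± 0.10, adjusted p = 0.0683). Arnt2 differed by -0.10 ± 0.04 (log2, SE; adjusted p = 0.0719). The ranges overlapped for all 3. Leaving out 1 pup changed these calls: without CONSC female 9-1x Ahr (log2 0.77, adjusted p = 0.0343) and Cyp1b1 (0.66, adjusted p = 0.0368) passed, without CONSC male 10-2y Ahr (0.83, adjusted p = 0.0384), without CONSC female 8-2x Arnt2 (-0.12, adjusted p = 0.0409) and without Aro5 male 108-1y, which shares the fit, Tiparp (-0.23, adjusted p = 0.0439). With pups of the time window alone, which drops the CONSC males 10-2y, 13-1y and 6-5y, Ahr passed in this comparison too (log2 1.01 ± 0.33, SE; adjusted p = 0.0256). Restricted to libraries of form A, the log2 difference of Ahr was 0.43 ± 0.40 (SE; adjusted p = 0.554).

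**Figure D4:**
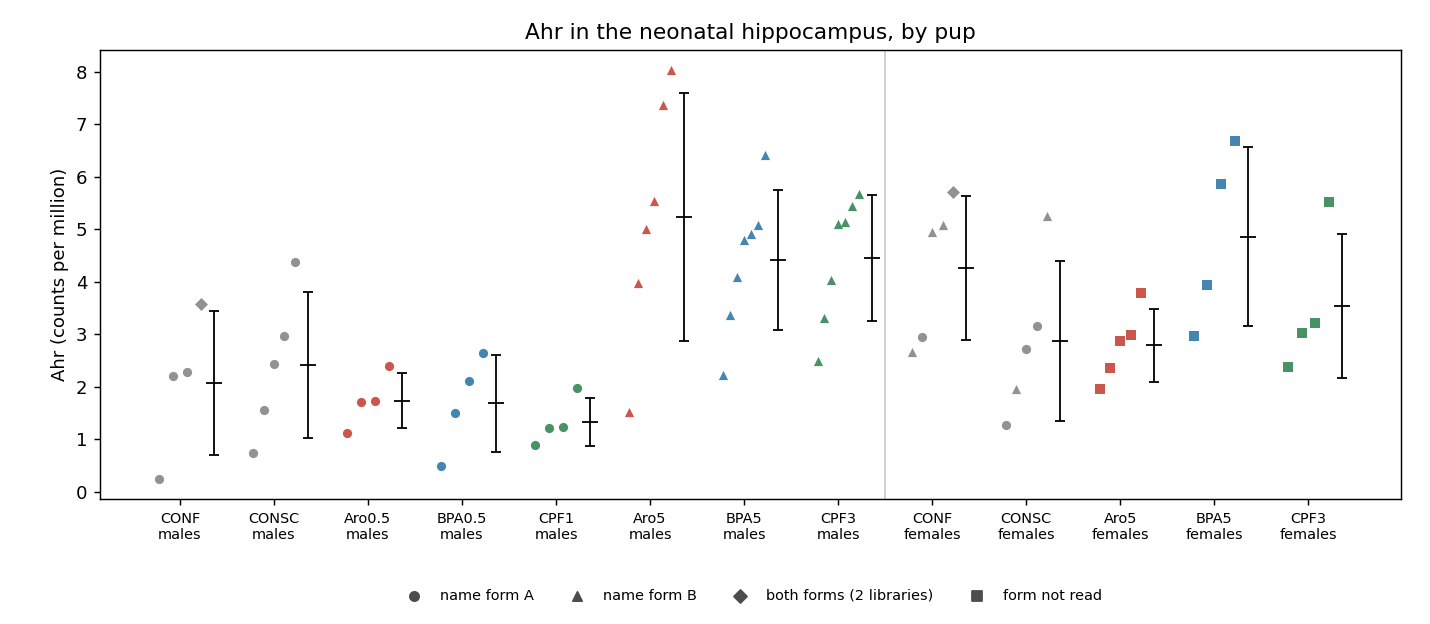
CPM of Ahr in each pup of the 13 groups; bars show mean ± SD and the marker shape gives the form of the library name. High-dose males reach 5.67 to 8.03 CPM at most, low-dose males stay at or below 2.64 CPM, and Aro5 females lie between 1.95 and 3.78 CPM.

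The dimerization partners varied least among the members. Arnt, the common partner of bHLH-PAS proteins, lay between 21.2 and 32.5 CPM over all 64 pups, and its spread within groups was 7.73% of the mean. Control males had 23.2, 26.3 and 29.7 CPM as lowest, median and highest value and Aro5 males 25.6, 26.8 and 27.6 CPM. All Aro5 males thus lay within the control range. The log2 fold change was 0.06 ± 0.06 (SE; 95% interval -0.07 to 0.18; adjusted p = 0.771). Aro0.5 males had 21.2, 22.8, 24.9 and 25.3 CPM, of which 2 lay below all control males and all 4 below the control median (log2 -0.07 ± 0.07, adjusted p = 0.566), and Aro5 females 23.5 to 30.2 CPM (log2 0.12 ± 0.08, SE, adjusted p = 0.999).

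Arnt2, the partner that prevails in neurons, lay between 266 and 399 CPM with a spread within groups of 6.33%. Aro5 males had 322, 334 and 351 CPM and control males 316, 342 and 388 CPM as lowest, median and highest value. The interval of the log2 fold change, -0.11 to 0.08, was among the narrowest of the members (adjusted p = 0.951). Aro0.5 males had 266, 311, 317 and 331 CPM, of which 2 lay below all control males, and Aro5 females 289 to 328 CPM. Neither difference passed (log2 -0.10 ± 0.06, adjusted p = 0.373, and 0.02 ± 0.06, SE, adjusted p = 0.999). CPF3 females had the highest group means of both partners, 30.1 ± 2.24 CPM for Arnt and 355 ± 32.1 CPM for Arnt2 (SD, n = 4). Against control females the log2 fold change was 0.25 ± 0.08 for Arnt (unadjusted p = 0.00606, adjusted p = 0.465) and 0.21 ± 0.06 for Arnt2 (SE; unadjusted p = 0.00204, adjusted p = 0.441). By edgeR, 0 of 6 members passed there, 2 had an unadjusted p under 0.05, 0% of all genes were called and 8.79% had an unadjusted p under 0.05, with 0 members called by DESeq2.

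**Figure D5:**
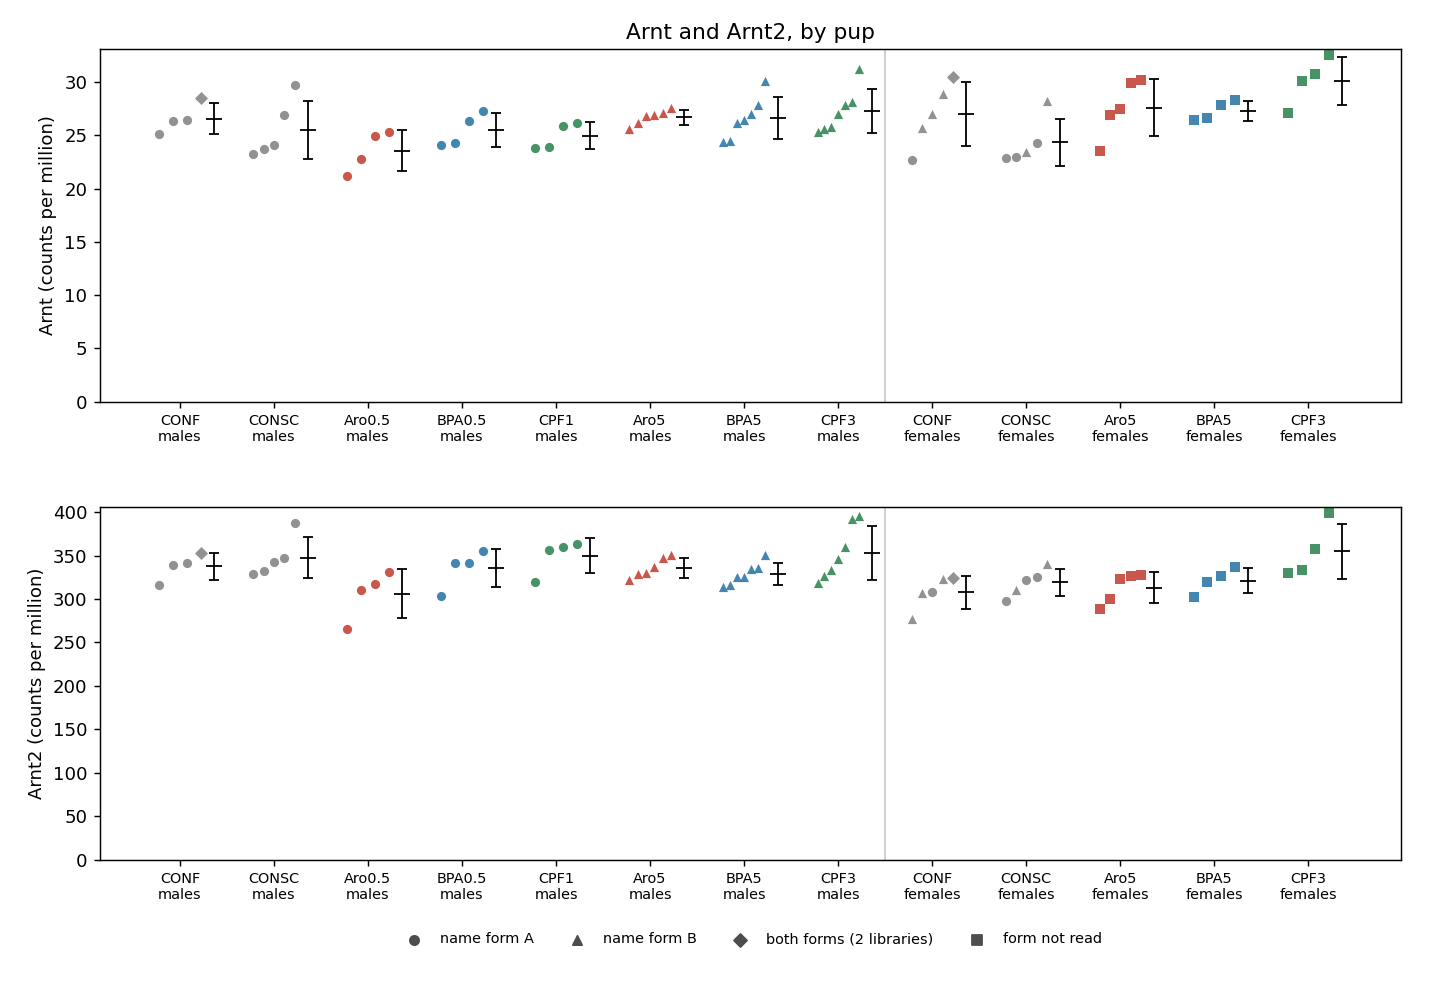
CPM of Arnt (top) and Arnt2 (bottom) in each pup of the 13 groups; bars show mean ± SD and the marker shape gives the form of the library name. Group means of Arnt run from 23.6 CPM in Aro0.5 males to 30.1 CPM in CPF3 females and those of Arnt2 from 306 to 355 CPM.

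Ordered by mean level over the 13 groups, Ahr ran from 5.24 ± 2.37 CPM in Aro5 males through BPA5 females (4.86 ± 1.71), CPF3 males (4.45 ± 1.20), BPA5 males (4.41 ± 1.34) and CONF females (4.26 ± 1.37) to CPF1 males (1.33 ± 0.459 CPM; SD). The highest mean was 3.94 times the lowest. For Cyp1b1 the order ran from CONF females (4.43 ± 0.989 CPM) to CONF males (2.48 ± 0.63 CPM), and for Tiparp from Aro5 males (15 ± 3.68 CPM) to Aro5 females (10.2 ± 1.14 CPM; SD). For all 7 members, 0 of the 12 steps between neighbouring groups exceeded the larger SD of the pair. Neighbours among 13 sorted means lie close by construction, so that this count does not show whether groups further apart differ. The feeding and injection controls were combined within each sex. Between CONF and CONSC males 0 of 5 members were called (background 0.013%) and between CONF and CONSC females 0 of 5 (background 0%), with 0 members at an unadjusted p under 0.05 and 0 called by DESeq2 in either. Of all genes, 0.988% in males and 4.29% in females had an unadjusted p under 0.05.

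Other genes of the pathway were taken from 4 lists, none of which had a member that passed in any of the 6 Aroclor comparisons or in the interaction. Of the chaperones and coactivators of AHR, all 10 were testable in Aro5 males, and 6 had an unadjusted p under 0.05, all higher, where 11.8% of all genes had one. The median log2 fold change of the list was 0.19, against 0 over all genes. Against the same controls the list had 6 such genes, all higher, in CPF3 males (median 0.18) and 3 in BPA5 males (median 0.17). Of all genes, 12.6% in CPF3 males and 9.1% in BPA5 males had an unadjusted p under 0.05. The most abundant, the chaperone Hsp90ab1, was at -0.03 ± 0.04 (SE; adjusted p = 0.837). The same list had a median of 0.03 in Aro5 males against the other high-dose males, -0.13 in Aro0.5 males and -0.05 in Aro5 females. In the interaction of sex and Aro5 its median was -0.22. There 5 of the 10 genes had an unadjusted p under 0.05, all with the lower change in females, against 8.92% of all genes. Of 12 other bHLH-PAS genes, 10 were testable in Aro5 males, 2 had an unadjusted p under 0.05, both higher, and the median was 0.23. Among them Hif1a, the oxygen-regulated partner of Arnt, was at 0.28 ± 0.11 (log2, SE; adjusted p = 0.306). In Aro0.5 males the median of this list was -0.25, with 3 of 10 genes lower at an unadjusted p under 0.05, which 18.5% of all genes had in either direction.

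Of 14 further AHR target genes 7 had enough counts, and their median log2 fold change was -0.03 in Aro5 males, 0.03 in Aro0.5 males and -0.15 in Aro5 females. The only one with an unadjusted p under 0.05 in Aro5 males was the quinone reductase Nqo1, and it was lower (log2 -0.23 ± 0.10, SE; adjusted p = 0.323). Nfe2l2, which encodes the regulator of the antioxidant response and had the most counts of the list, was at -0.03 ± 0.10 (SE; adjusted p = 0.944). Non-coplanar biphenyls are known to act through the nuclear receptors CAR and PXR, whose genes and targets formed the last list. Of its 16 genes 7 were testable, and 0 had an unadjusted p under 0.05 in Aro5 males, Aro0.5 males or Aro5 females, with medians of -0.02, 0.04 and -0.08. Cyp2b1, the classic CAR target of liver, had 4 counts in all libraries together, and Cyp2b2 and Cyp3a23/3a1 had 0. Por, the electron donor of the microsomal monooxygenases, was at 0.07 ± 0.14 in Aro5 males (log2, SE; adjusted p = 0.886).

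Across the 64 pups, with group means removed, Spearman's rho was 0.60 between Arnt and Arnt2 and 0.38 between Ahr and Cyp1b1, and between 0.12 and 0.39 for the remaining pairs of the 5 members with enough counts. These values are descriptions over pups that share library and dissection effects. The genes closest to Ahr were Phlpp2, a phosphatase acting on AKT (rho 0.88), the sodium channel Scn1a (rho 0.87) and Stxbp5l (rho 0.87). In Aro5 males their log2 fold changes against controls were 0.58 ± 0.18, 0.61 ± 0.22 and 0.98 ± 0.31 (SE; adjusted p = 0.225, 0.265 and 0.238). All 3 thus had positive values beside Ahr, and none passed. Closest to Cyp1b1 were Akap13 (rho 0.85), the semaphorin Sema3c (rho 0.81) and LOC103691415 (rho 0.75). Tiparp varied most closely with Ppp1r15b, Hiatl1 and Sp1 (rho 0.74 each), Arnt with Zfp609, Kat6a and Arid1a (rho 0.67 each), and Arnt2 with Zfp609 (rho 0.76), Hnrnpr and Camsap1 (rho 0.75 each).

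Since several members are known from vascular and meningeal cells, markers of other cell types were summed in each pup. The 7 endothelial markers with counts, of 8 listed, summed to 153 to 180 CPM in Aro5 males and 152 to 183 CPM in control males. The 7 meningeal markers with counts summed to 122 to 201 CPM and 114 to 190 CPM, the 8 mural markers to 157 to 201 CPM and 175 to 199 CPM, and the 6 microglial markers to 75.6 to 102 CPM and 64.5 to 124 CPM. The 2 erythroid markers with counts, of 4 listed, summed to 165 to 276 CPM and 204 to 421 CPM. These ranges overlapped, and no marker passed the test in the Aroclor comparisons. The erythroid sum averaged 217 ± 37.7 CPM in Aro5 males and 316 ± 75.6 CPM in control males (SD). Its median log2 fold change was -0.38, and 1 of the 2 markers was lower at an unadjusted p under 0.05, as 11.8% of all genes had in either direction. In Aro5 males the medians were -0.24 for choroid plexus and -0.18 for microglia, and -0.01, 0.01 and 0.06 for endothelial, mural and meningeal markers. Choroid plexus markers varied most, from 1110 to 3060 CPM in Aro5 males, from 853 to 3120 CPM in Aro0.5 males and from 1280 to 3930 CPM in control males. In Aro0.5 males their median log2 fold change was -0.65 and 4 of the 6 markers were lower at an unadjusted p under 0.05, which 18.5% of all genes had in either direction. Within groups, over the 64 pups, Spearman's rho of Cyp1b1 was 0.65 with the meningeal sum, 0.58 with the sum of hippocampal neuron markers and 0.43 with the endothelial sum. For Ahr it was largest in size with the choroid plexus sum (-0.39) and the microglial sum (-0.27), and 0.11 and -0.07 with the meningeal and endothelial sums. The part of these cell types in the levels of the members was not tested.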

How the data were processed

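RNA of 64 pups was measured in 66 stranded poly-A libraries. The labels name a NovaSeq with 100-base single-end reads, whereas the methods name another Illumina instrument. The authors aligned reads to Rnor_6.0 with STAR and deposited raw counts per gene from featureCounts. The submitters' processing notes also list kallisto, and versions and the strand setting are not given in the sources used here.

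Libraries of a pup were summed. Counts were tested in edgeR 4.0.16 (R 4.3.3) by the quasi-likelihood F test with TMM scaling, after filterByExpr with a minimum count of 10, separately for high-dose males, low-dose males and females with their controls, and in 1 model for the interaction. P-values were adjusted by Benjamini-Hochberg over all genes tested. Members under the filter were compared by exact 2-sided permutation tests of mean CPM over pups, where p is the share of splits with an absolute difference at least as large. Rates carry 95% exact intervals that cover counting error only. DESeq2 1.42.0, limma 3.58.1 (litter as a block), scaling, filter, time window, name form, control route, 1 pup per litter and leaving out each pup were alternatives. The tests were tried on simulated counts. Labels do not say that pups were independent beyond their litter numbers.

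All 7 members are reported, with the list genes of most counts and the 3 nearest genes of each member. The members and lists were chosen with earlier results of these data known.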

Additional observations from a re-analysis of the deposited data

Results flagged for a closer look

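Of 105 combinations of gene and group with 4 to 10 pups, 3 held a pup that stood far from the others of its group. Chance alone sets apart about 1 in 20 such groups. Among CONSC females, pup 8-2x had 28.2 CPM of Arnt while the others lay between 22.9 and 24.3 CPM. Among CPF1 males, pup 63-5y had 320.0 CPM of Arnt2 while the others lay between 356 and 363 CPM. In the same group, pup 16-7y had 0.564 CPM of Ahrr, from 7 counts, while the others lay between 0.262 and 0.312 CPM.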

How the results depend on the processing

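The absence of a call held for Arnt, Arnt2, Cyp1b1 and Tiparp under all alternatives other than leaving out single pups. For Ahrr it held in the fits where this gene passed the count filter. Cyp1a1 passed the filter in no fit and Ahrr not in the male fits, so that most alternatives could not test them there. Apart from leaving out single pups, their exact tests had only a log2 scale of CPM as an alternative, which gave no call. Ahr alone was called with pups of the time window only, which gave 1 member called in each of Aro5 males against controls, female against male controls and the interaction. Cyp1a1 and Ahrr are limited by depth, with medians of 2 and 6 counts per pup. The cause of these changes was not tested.

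Counts of genes called moved more. In Aro5 males (32 genes) they were 54 in 1 fit of all 64 pups, 101 with DESeq2, 17 with controls of the same route, 818 within the time window and 0 with a term for the form of library names. In Aro0.5 males (20 genes) they were 269 with DESeq2, 13 with the form as a covariate, 1 with controls of the same route and 0 within the time window. DESeq2 called 1 gene in Aro5 females and 1 in Aro5 males against the other high-dose males. For the remaining comparisons, counts that moved by over 1.5 times were 1 to 39 in BPA0.5 males (7), 0 to 63 in BPA5 males (31), 0 to 82 in CPF3 males (26), 1 to 2 in BPA5 females (0), 3 to 14 in CPF3 females (0), 34 (DESeq2) and 609 (time window) for the interaction (17) and 1847 in form A alone for female against male controls (4681).

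The sign of the log2 difference turned in these cases. With pups of the time window it was -0.22 (0.11 with all pups) for Ahrr in Aro5 against other high-dose females, -0.06 for Ahrr in Aro5 females, 0.02 for Arnt2 in Aro5 males and -0.02 for Arnt2 in the interaction. With 1 pup per litter it was -0.01 for Arnt2 and 0.05 for Cyp1b1 in Aro5 females. With the form as a covariate it was -0.05 for Arnt in Aro5 males, and with form A alone -0.07 for Arnt in female against male controls. On the scale of log2 of CPM plus 0.05, Cyp1a1 in CPF3 females was at -0.0125.

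With litter as a replicate block, by limma with a consensus correlation of -0.0061 over 52 pups of 32 litters, the log2 fold change of Ahr in Aro5 males was 1.32 (adjusted p = 0.22), and 30 genes were called there, 19 in the interaction and 4440 between control females and males. The block turned the sign of Cyp1b1 in Aro5 females to 0.02 and of Arnt in female against male controls to -0.01, and it called 0 members.

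Leaving out each pup in turn gave 0 to 1 members and 25 to 176 genes called in Aro5 males, the highest without 108-1y, with 67 genes without CONF N2-2y, and 0 to 322 genes in Aro0.5 males, the highest without CONSC 8-4y and the lowest without Aro0.5 94-3y. Female against male controls gave 0 to 2 members. Ranges that crossed 0 were, on the log2 scale, -0.09 to 0.25 for Cyp1b1 in Aro0.5 against other low-dose males, -0.08 to 0.26 for Cyp1b1 in Aro0.5 males, -0.05 to 0.33 for Ahrr in Aro5 females, both against controls and against other high-dose females, -0.01 to 0.05 for Arnt2 and -0.27 to 0.13 for Cyp1b1 in Aro5 females, -0.04 to 0.01 for Arnt2 in Aro5 males, -0.02 to 0.01 for Arnt in Aro5 against other high-dose males, -0.01 to 0.05 for Arnt in female against male controls and -0.37 to 0.07 for Ahrr in the interaction. In CPM, they were for Cyp1a1 -0.0266 to 0.0119 in Aro5 females, -0.0145 to 0.0358 in BPA0.5 males, -0.0214 to 0.0415 in BPA5 females, -0.0248 to 0.0803 in CPF3 females, -6.3e-05 to 0.0486 in Aro5 against other high-dose males and -0.0512 to 0.0142 in Aro0.5 against other low-dose males. For Ahrr they were -0.0239 to 0.0325 in BPA5 males and -0.0203 to 0.0518 in Aro5 against other high-dose males.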
